A study of Mus musculus with 2 samples.

Results

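The activin receptors, SMADs and follistatins are 10 genes picked by name from the 32285 genes of the tables, and all 10 were matched to an identifier. They are the type I receptors *Acvr1b* and *Acvr1*, the type II receptors *Acvr2a* and *Acvr2b*, the signal transducers *Smad2*, *Smad3* and *Smad4*, the inhibitory SMAD *Smad7*, and the secreted antagonists *Fst* and *Fstl3*. Their transcripts were followed in alveolar macrophages (AMs), the resident phagocytes of the air spaces, in every barcode with at least 500 detected genes and at most 10% mitochondrial transcripts. This left 6185 of 8485 barcodes of the control library and 7666 of 9175 barcodes of the tumor library.

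Both libraries came from lungs of female wild type C57BL/6 mice, which the labels place at postnatal week 10, and held CD45+ cells sorted for their strong autofluorescence. In the study's methods AMs are the Siglec-F+ and CD11b- cells of that population and tumor-associated macrophages the Siglec-F- and CD11b+ cells, so a sort of AMs by these markers would remove the latter. Control-AM was made from vehicle-control mice and Tumor-AM from mice carrying LLC cells, a Lewis lung carcinoma line of the same strain, implanted into the left lung. There was 1 library per condition. The number of mice behind each library is not given in the sources used here.

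Activins are dimers of inhibin beta subunits, and *Inhba* encodes the subunit of activin A. The dimer holds a type II receptor, which activates a type I receptor, which phosphorylates SMAD2 and SMAD3, and these join SMAD4 and act in the nucleus. The loop has brakes at both ends, since follistatin and its relative FSTL3 bind the ligand outside the cell while SMAD7, which SMAD signaling itself can switch on, blocks the receptor inside it. Macrophages can make activin A as well as respond to it, so the question for these genes was whether the cells that carry *Inhba* also carry the machinery to receive and restrain its product.

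The kept barcodes held 64850143 unique molecular identifiers (UMIs) in the control library, with a median of 10370 per cell, and 68801889 in the tumor library, with a median of 8264. All 12 AM markers, among them *Chil3* and *Marco*, were detected in both libraries and summed to 17999.7 counts per 1000000 UMIs (CPM) in control and 15266 CPM in tumor. Most of each sum was *Chil3* (11656.5 and 10518.9 CPM), and *Marco* was at 585 and 207 CPM and *Fabp1* at 515 and 129.6 CPM. *Plet1* (1347 and 1559 CPM) and *Itgax* (362 and 384 CPM) had the higher level in tumor. All other AM markers had the lower level there, *Pparg* by little (127 and 119 CPM). Between the libraries 17 kept barcodes were shared, and these held 2 *Fst* UMIs, both in tumor. Markers of other cells differed between the libraries. The 7 genes of monocyte-derived macrophages summed to 15.7 CPM in control and 87.8 CPM in tumor, the 6 of fibroblasts to 0.771 and 32.4 CPM with *Lum* at 0 in control, the 6 of neutrophils to 70.3 and 123 CPM, mostly *S100a8* (45.2 and 103 CPM) while *S100a9* was at 4.996 and 0.0436 CPM and *Retnlg* and *Ly6g* were at 0 in tumor, and the 7 of epithelial cells to 125 and 41.3 CPM. Levels are CPM of UMIs summed over cells, and intervals in parentheses are exact at 95% and cover counting error only. Cells of 1 library are not replicates, so no test was run and no p-value is given. The library and the condition cannot be told apart, and neither can more cells with a transcript and more transcript per cell in a summed level. A gene was called higher or lower at 1.5-fold or more, among genes with at least 50 UMIs over both groups compared. The 3′ counts are not scaled by length and capture differs between transcripts, so an order between genes is an order of UMIs only.

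The 4 receptors, *Smad2* and *Smad4* were present in both libraries at nearly the same levels, while *Fst* differed. *Fst* was 6.96-fold (4.71 to 10.6) higher in the tumor library, and *Smad7* was 1.31-fold (1.20 to 1.44) higher, short of the fold for a call. With clusters weighted as in control, the log2 ratio of *Fst* went from 2.80 to 1.62 and that of *Smad7* from 0.39 to −0.15. The receptors and *Smad2* and *Smad4* lay between 0.873-fold and 1.12-fold. Of the 10 genes, 8 had at least 50 UMIs, of which 1 was called higher and 0 lower, against 8.44% of all 12267 genes tested called higher and 11.0% called lower. The median log2 ratio of those 8 genes was 0.11 and that of all genes tested was −0.06.

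**Figure D1:**
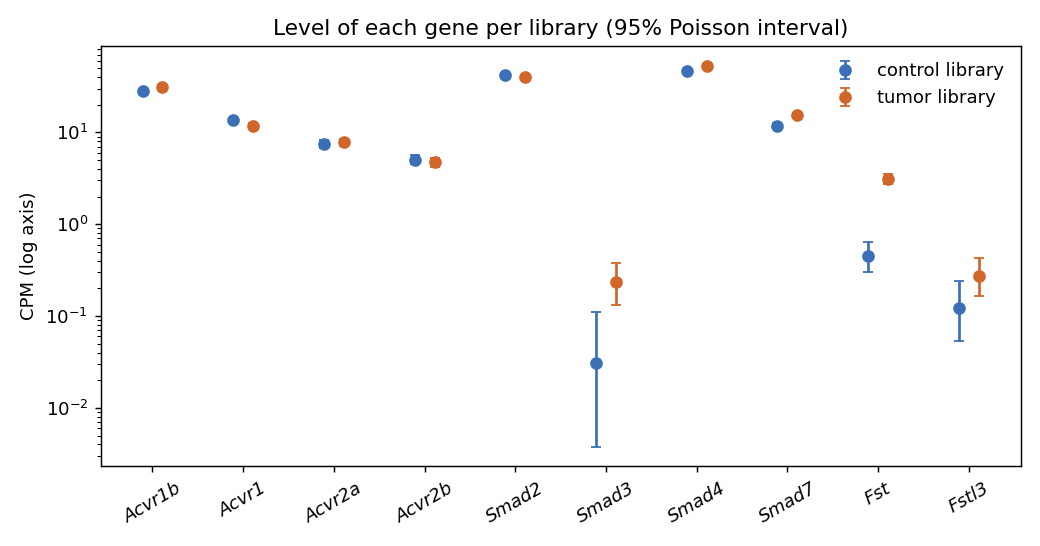
Level of the 10 genes in the control and the tumor library, in CPM on a log axis, with bars for the exact 95% Poisson interval of 1 library each. The receptors, *Smad2* and *Smad4* sit side by side, *Fst* stands at 0.447 and 3.11 CPM, and *Smad3* and *Fstl3* lie under 0.3 CPM in both libraries.

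*Acvr1b* (ENSMUSG00000000532, chr15:101174067-101213684, plus strand of GRCm38), the type I receptor best known for activin and also called ALK4, had the most UMIs of the 4 receptors. It had 1816 UMIs or 28.0 CPM (26.7 to 29.3) in control and 2138 UMIs or 31.1 CPM (29.8 to 32.4) in tumor, a ratio of 1.11-fold (1.04 to 1.18). The intervals of the levels did not overlap, and the ratio was larger than that of 74.9% of all genes tested. *Acvr1* (ENSMUSG00000026836, chr2:58388644-58567157, minus strand), a type I receptor used mainly for bone morphogenetic proteins and able to hold activin without the usual signal, was at 13.5 CPM (12.6 to 14.4) in control and 11.8 CPM (10.98 to 12.6) in tumor, 0.873-fold (0.792 to 0.961). It was the only receptor whose ratio had an interval below 1.

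*Acvr2a* (ENSMUSG00000052155, chr2:48814109-48903269, plus strand) and *Acvr2b* (ENSMUSG00000061393, chr9:119402118-119434995, plus strand) encode the type II receptors that first hold the ligand. *Acvr2a* was at 7.48 CPM (6.83 to 8.17) in control and 7.82 CPM (7.17 to 8.51) in tumor. *Acvr2b* was at 5.04 CPM (4.51 to 5.62) and 4.74 CPM (4.24 to 5.28). For both, the interval of the ratio included 1, from 0.923 to 1.18 for *Acvr2a* and from 0.804 to 1.10 for *Acvr2b*, so a difference of 1.5-fold lay outside them. *Orc4* overlaps *Acvr2a* on the opposite strand and was detected too. Cell Ranger counts sense reads only by default. The methods name default settings, but for another version than the submitters' processing notes name. The part of *Orc4* reads in the level of *Acvr2a* was not tested.

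*Smad4* (ENSMUSG00000024515, chr18:73639009-73703780, minus strand), the partner shared by all signal-carrying SMADs, was the member with the most UMIs, at 46.7 CPM (45.0 to 48.4) in control and 52.3 CPM (50.6 to 54.0) in tumor. Its ratio was 1.12-fold (1.07 to 1.18). *Smad2* (ENSMUSG00000024563, chr18:76241580-76310963, plus strand), the receptor-activated SMAD that carries the activin signal, was at 42.1 CPM (40.6 to 43.8) and 40.2 CPM (38.7 to 41.7), 0.954-fold (0.905 to 1.01). The interval of *Smad4* excluded 1 and that of *Smad2* reached it.

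*Smad3* (ENSMUSG00000032402, chr9:63646767-63757994, minus strand), the other receptor-activated SMAD of this branch, was nearly missing. It had 2 UMIs in control, or 0.0308 CPM (0.00373 to 0.111), and 16 in tumor, or 0.233 CPM (0.133 to 0.378), a ratio of 7.54 with an interval from 1.77 to 67.6. Of these, 1 of the control UMIs and 5 of the tumor UMIs were in the 32 cells of a small cluster led by the fibroblast genes *Dcn*, *Col3a1* and *Lum*, where the level was 22.1 CPM (0.559 to 123) in 9 control cells and 14.2 CPM (4.62 to 33.2) in 23 tumor cells. The other 11 tumor UMIs were all in tumor-enriched clusters of macrophages, which the account of the clusters gives. *Smad3* stayed under the minimum of 50 and was not called.

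The starts of *Acvr1b* and *Smad3* are shown because these genes are, among the 10 members, the receptor with the most UMIs and the SMAD with the fewest. No window was available for *Smad2*, *Smad4*, *Smad7* or *Fst*, so *Smad3* was the only SMAD that could be shown. Each run is the 250 bases before the start in the RefSeq promoter table of GRCm38.p6, on the strand of the gene and read 5′ to 3′, and capitals mark each CG pair.
*Acvr1b*, chr15:101173822-101174071, plus strand: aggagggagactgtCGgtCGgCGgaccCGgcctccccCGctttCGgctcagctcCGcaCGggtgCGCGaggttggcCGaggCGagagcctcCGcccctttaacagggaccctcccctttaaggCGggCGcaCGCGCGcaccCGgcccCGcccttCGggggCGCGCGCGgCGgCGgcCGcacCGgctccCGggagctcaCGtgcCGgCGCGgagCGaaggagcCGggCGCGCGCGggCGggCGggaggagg
*Smad3*, chr9:63757995-63758244, minus strand: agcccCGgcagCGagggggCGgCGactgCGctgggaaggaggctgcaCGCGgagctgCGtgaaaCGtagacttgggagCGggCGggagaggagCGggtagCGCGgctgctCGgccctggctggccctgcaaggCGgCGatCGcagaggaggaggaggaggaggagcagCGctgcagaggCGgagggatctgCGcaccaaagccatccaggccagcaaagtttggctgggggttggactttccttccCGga
The letters CG, which read the same on both strands, occurred 42 times in the *Acvr1b* window and 22 times in that of *Smad3*. The median of all 32851 windows of that length was 6, and 99.1% of them had fewer pairs than *Acvr1b* and 85.2% fewer than *Smad3*. The windows of *Acvr2a*, *Acvr1*, *Acvr2b* and *Fstl3* held 49, 46, 24 and 22 pairs. These counts describe the sequence and were not related to the level of any gene.

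*Smad7* (ENSMUSG00000025880, chr18:75367529-75395935, plus strand), the inhibitory SMAD, had 762 UMIs in control, or 11.8 CPM (10.9 to 12.6), and 1063 in tumor, or 15.5 CPM (14.5 to 16.4). The intervals did not overlap. Its ratio was larger than that of 88.0% of the genes tested. *Smad7* was also high in the small fibroblast-led cluster, at 155 CPM (62.1 to 318) in the control and 91.1 CPM (62.3 to 129) in the tumor cells, which held 0.919% and 3.01% of its UMIs.

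*Fst* (ENSMUSG00000021765, chr13:114452290-114458951, minus strand) encodes follistatin, which wraps the activin dimer and hides its receptor sites. It had 29 UMIs in 25 control cells, or 0.447 CPM (0.299 to 0.642), and 214 UMIs in 186 tumor cells, or 3.11 CPM (2.71 to 3.56). No cell of either library held more than 3 *Fst* UMIs, and the 5 highest cells of the tumor library held 6.54% of its total. The log2 ratio of 2.80 was larger than that of 98.5% of the genes tested, against 97.0% for *Inhba*, which was at 45.6 CPM (44.0 to 47.3) in control and 148 CPM (145 to 151) in tumor. The intervals of *Fst* in the libraries did not overlap. *Fstl3* (ENSMUSG00000020325, chr10:79777272-79782630, plus strand), the related antagonist, had 8 UMIs in control, or 0.123 CPM (0.0533 to 0.243), and 19 in tumor, or 0.276 CPM (0.166 to 0.431). Its ratio of 2.24 had an interval from 0.936 to 5.91. The gene was under the minimum and was not called.

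**Figure D2:**
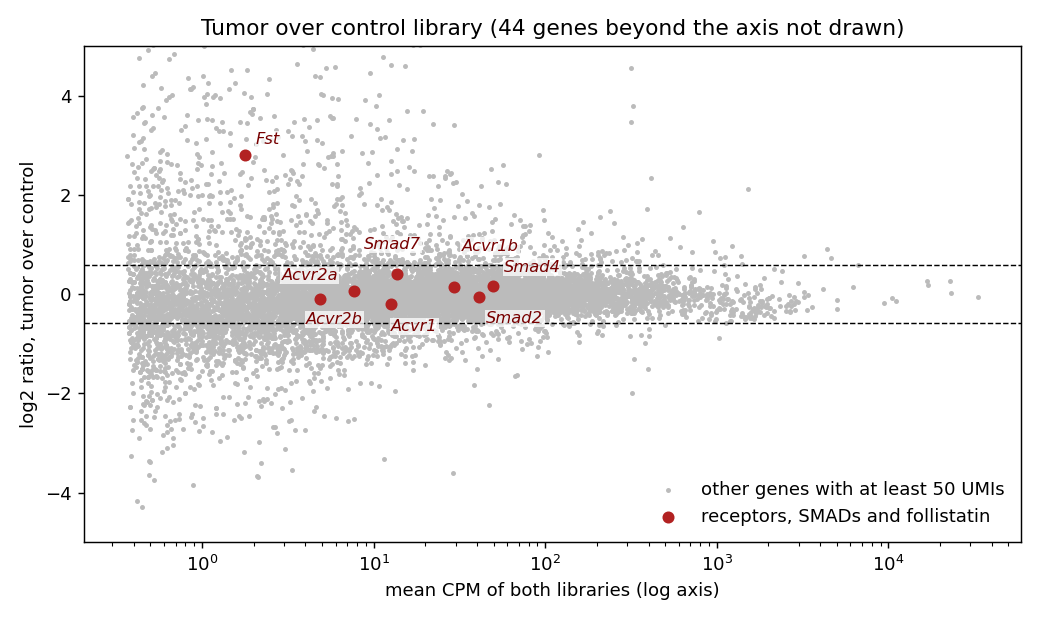
Log2 ratio of tumor over control against the mean CPM of both libraries on a log axis, for genes with at least 50 UMIs, with 8 of the 10 members in red and the 1.5-fold limits dashed. *Fst* lies among the higher genes of its level, *Smad7* just inside the upper limit, and the receptors, *Smad2* and *Smad4* in the middle of the cloud.

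Shares of cells with a transcript depend on depth, which was lower in the tumor library. Each cell was therefore thinned to 3800 UMIs, and cells with fewer were left out, which kept 5590 of 6185 control and 6937 of 7666 tumor cells. *Smad4* was then found in 16.3% (15.3 to 17.3) of control and 17.5% (16.7 to 18.5) of tumor cells, and *Smad2* in 15.04% (14.1 to 16.0) and 14.5% (13.7 to 15.4). *Acvr1b* was found in 10.1% (9.33 to 10.9) and 11.9% (11.2 to 12.7), and its difference of 1.83 percentage points (0.715 to 2.93) excluded 0. Unthinned, the share of *Acvr1b* had the other order, 24.7% in control and 23.6% in tumor. The share with *Acvr1* was 4.70% and 4.31%, that with *Acvr2a* 2.93% and 2.90%, and that with *Acvr2b* 2.15% and 1.85%, each with a difference whose interval included 0.

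*Smad7* was found in 3.88% (3.39 to 4.42) of control and 5.58% (5.05 to 6.15) of tumor cells, a difference of 1.70 points (0.941 to 2.45). *Fst* was found in 11 of 5590 control cells, 0.197% (0.0983 to 0.352), and in 79 of 6937 tumor cells, 1.14% (0.903 to 1.42), a difference of 0.942 points (0.660 to 1.24). Unthinned, *Smad7* was in 10.3% and 11.1% of cells and *Fst* in 0.404% and 2.43%. So *Acvr1b*, *Smad7* and *Fst* were the 3 members in more tumor than control cells beyond counting error, and 0 were in fewer. The share of all genes that pass this rule was not computed at any depth. Such counts are therefore not read as a result about the members. The size depended on the thinning depth. At 2000 UMIs the difference of *Smad7* was 0.455 points and that of *Fst* 0.429, and at 6000 UMIs that of *Fst* was 1.74 points and that of *Smad4* 2.81, with 4 members in more tumor cells.

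Free RNA can also give a cell a UMI, and no gene in these tables measured it well for the members. After thinning, the fibroblast gene *Dcn* was found in 0.0716% of control and 0.274% of tumor cells, and the surfactant gene *Sftpc* of epithelial cells in 5.28% and 2.78%. The share of *Dcn* includes cells that express it, since unthinned 2 of its 7 control and 10 of its 46 tumor cells were in the fibroblast-led cluster, with 80% and 96.2% of its UMIs. *Fst*, *Smad3*, *Fstl3* and *Acvr2b* lay below *Sftpc* in both libraries, *Acvr1*, *Acvr2a* and *Smad7* lay below it in control, and the control interval of *Fst* overlapped that of *Dcn* (0.0195 to 0.183). *Smad3* was found in 0.0179% and 0.0721% of cells and *Fstl3* in 0.0537% and 0.101%. The part of free RNA in these shares was not tested. Receptors and SMADs are made by most cell types, and no cells known to lack them were in the libraries.

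Few single cells showed the whole receiving chain at this depth. At least 1 of the 4 receptors was seen in 18.6% (17.6 to 19.7) of control and 19.7% (18.8 to 20.7) of tumor cells after thinning, and in 41.1% and 37.6% before it. *Acvr1b* together with a type II receptor was seen in 0.447% (0.290 to 0.659) and 0.548% (0.388 to 0.751). *Smad2* together with *Smad4* was seen in 2.70% (2.29 to 3.16) and 2.19% (1.86 to 2.56). The full set of *Acvr1b*, a type II receptor, *Smad2* and *Smad4* was seen in 0 of 5590 control cells, with an exact upper limit of 0.0660%, and in 1 of 6937 tumor cells, and unthinned in 40 and 39 cells. For transcripts of a few UMIs per cell or fewer, such shares count what was sampled and not which cells hold the protein.

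The cells of both libraries were clustered together with the 10 members, *Inhba* and the other pathway genes kept out of the features. This gave 17 clusters, numbered by size, of which 16 were counted as macrophages and 1, number 17, was the fibroblast-led one. Cluster 8, counted as macrophages, was led by the antigen presentation genes *H2-Eb1*, *H2-Aa*, *H2-Ab1* and *Cd74* and by *Cxcl9*. The neutrophil gene *S100a9* and the B cell gene *Igkc* were also among its leading genes. No AM marker was among them, which held for several other clusters too, such as 2, 4 and 6. In cluster 8 *Marco* was at 461 CPM in the control and 144 CPM in the tumor cells. Clusters 2, 3 and 16 were tumor-enriched, with at least 90% of their cells from the tumor library after equal weighting of libraries. Cluster 2 (47 control and 1566 tumor cells) was led by *Apoe*, *C1qb* and *S100a6*, cluster 3 (90 and 1199) by *Il1b*, *F13a1* and *S100a4*, and cluster 16 (16 and 218) by the interferon genes *Rsad2*, *Ifit1* and *Isg15*. Together they held 38.9% of the cells of the tumor library. Such a cluster could be a state of the animals or a property of the single library, and these cannot be told apart.

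Within the tumor library, *Fst* and *Smad7* were called higher in the tumor-enriched clusters and no receptor was called. *Fst* was at 5.56 CPM (4.74 to 6.49) in the 2983 cells of the tumor-enriched clusters and at 1.30 CPM (0.970 to 1.71) in the 4660 cells of the other 13 macrophage clusters, 4.27-fold (3.102 to 5.97). *Smad7* was at 20.9 CPM (19.3 to 22.6) and 10.7 CPM (9.68 to 11.7), 1.96-fold (1.73 to 2.22). These 2 were the members called, both higher, where 5.82% of 11232 genes were called higher and 11.2% lower. The tumor-enriched clusters held 76.2% (69.9 to 81.7) of the *Fst* UMIs and 57.7% (54.6 to 60.7) of the *Smad7* UMIs of the library. After thinning, *Fst* was in 2.15% (1.65 to 2.75) of tumor-enriched and 0.421% (0.245 to 0.673) of other cells, and *Smad7* in 7.81% (6.86 to 8.85) and 3.89% (3.31 to 4.53).

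No receptor was called, and the ratios of *Acvr1* and *Acvr2b* lay below 1. *Acvr1* was at 9.87 CPM (8.76 to 11.1) in the tumor-enriched and 13.0 CPM (11.9 to 14.2) in the other clusters, 0.757-fold (0.653 to 0.877), and *Acvr2b* at 3.99 CPM (3.30 to 4.79) and 5.29 CPM (4.59 to 6.06), 0.756-fold (0.597 to 0.952). *Acvr1b* and *Acvr2a* had ratios of 0.937 and 1.08 with intervals that included 1. *Smad2* was at 0.919-fold (0.851 to 0.992) and *Smad4* at 1.10-fold (1.03 to 1.18). *Smad3* had 11 UMIs in the tumor-enriched clusters, or 0.376 CPM (0.187 to 0.672), and 0 in the others, where its level was at most 0.0942 CPM. *Fstl3* had 5 and 8 UMIs.

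Some markers of other macrophages moved with these levels. In this comparison 5.82% of all genes tested were called higher and 11.2% lower. The 7 listed genes of monocyte-derived macrophages summed to 154 CPM in the tumor-enriched and 39.2 CPM in the other clusters. Of these, 4 of 6 tested genes were higher and 1 lower. *C1qb* was at 40.4 and 5.95 CPM and *Ccr2* at 12.9 and 6.41 CPM, while *Ly6c2* was at 1.09 and 2.25 CPM, *Cx3cr1* at 2.77 and 3.40 CPM and *Fcrls* at 0.102 and 0.255 CPM. The 12 AM markers summed to 12544.8 and 17420.7 CPM, 0 of them higher and 6 lower, with *Marco* at 25.3 and 344 CPM. None of the 7 or the 12 was at 0 in either set. Fibroblast genes, which could carry *Smad7* or *Smad3* reads, summed to 0.956 and 2.43 CPM there, with *Col1a1* at 0 in the tumor-enriched set. The part of a different macrophage origin in the levels of *Fst* and *Smad7* was not tested.

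Inside the tumor-enriched set, *Fst* was at 5.38 CPM (4.31 to 6.62) in cluster 2, 6.64 CPM (5.15 to 8.41) in cluster 3 and 2.61 CPM (1.05 to 5.38) in cluster 16. The intervals of clusters 2 and 3 overlapped. *Smad7* was at 21.2 CPM (19.0 to 23.6) in cluster 2, 22.9 CPM (20.1 to 26.1) in cluster 3 and 11.6 CPM (7.86 to 16.4) in cluster 16. The interferon-led cluster lay below clusters 2 and 3, with intervals that overlapped theirs for *Fst* and did not for *Smad7*. Its levels were within the range of the remaining macrophage clusters. Of those, cluster 7 was highest, with *Smad7* at 19.7 CPM (12.8 to 29.1) and *Fst* at 3.15 CPM (0.859 to 8.08). These intervals overlapped those of clusters 2 and 3. Among the macrophage clusters of the tumor library *Acvr1* was lowest in cluster 2, at 7.88 CPM (6.58 to 9.36), and highest in cluster 16, at 16.4 CPM (11.9 to 22.03). *Smad4* was highest among them in cluster 3, at 62.5 CPM (57.7 to 67.5).

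Over the 16 macrophage clusters of the tumor library, *Smad2* ranged from 27.0 to 52.0 CPM and *Smad4* from 32.5 to 62.5 CPM, both lowest in cluster 13, which *Ear1* led. *Acvr1b* ranged from 21.96 to 46.5 CPM, highest in cluster 7, a cluster of 2787 UMIs per cell led by nuclear RNAs such as *Malat1*, where *Acvr2a* (14.2 CPM, 8.41 to 22.4) and *Acvr2b* (11.8 CPM, 6.62 to 19.5) were highest too. *Fst* was at 0 in clusters 5 and 10, where the exact upper limits were 1.79 and 1.33 CPM. In control, 14 macrophage clusters had at least 50 cells, and *Fst* was highest in cluster 6, led by *Cxcl3* and *Tnf*, at 1.17 CPM (0.381 to 2.74) from 5 UMIs.

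**Figure D3:**
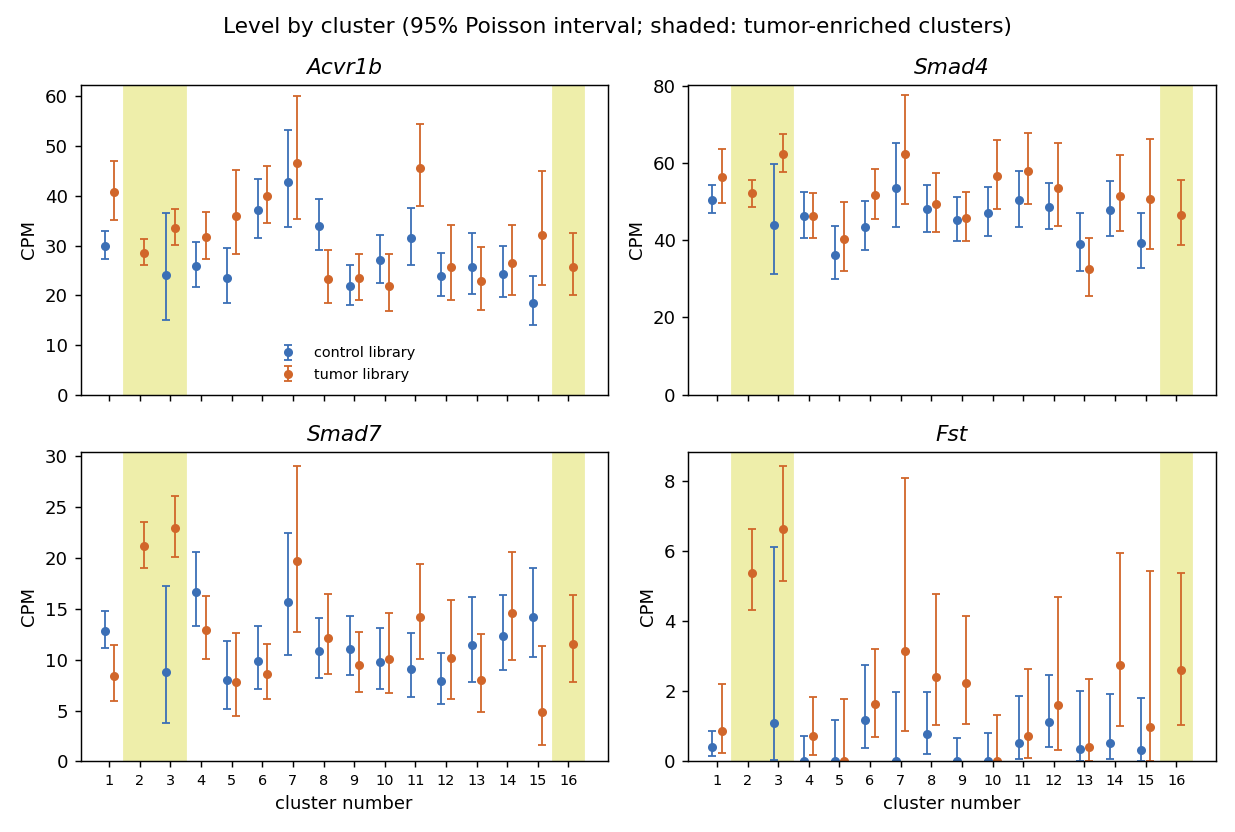
Level of *Acvr1b*, *Smad4*, *Smad7* and *Fst* in CPM by cluster number for macrophage clusters with at least 50 cells of a library, with exact 95% Poisson intervals of the UMI counts and the tumor-enriched clusters shaded. *Smad7* and *Fst* of the tumor library are highest in clusters 2 and 3, though their intervals in cluster 7, which is not tumor-enriched, overlap those. *Acvr1b* of the tumor library runs from 21.96 to 46.5 CPM over the clusters.

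Outside the tumor-enriched clusters *Smad7* did not differ between the libraries beyond counting error and *Fst* did. With only the other 13 macrophage clusters, 4660 tumor and 6023 control cells, *Smad7* was at 10.7 CPM (9.68 to 11.7) in tumor and 11.6 CPM (10.8 to 12.5) in control, 0.920-fold (0.814 to 1.04). *Fst* was at 1.30 CPM (0.970 to 1.71) and 0.427 CPM (0.282 to 0.622), 3.05-fold (1.88 to 5.06), and it was the only member called, where 5.53% of genes were called higher and 6.67% lower. *Acvr1* was at 0.967-fold (0.865 to 1.08), *Acvr2a* at 1.02-fold and *Acvr2b* at 1.04-fold. *Acvr1b* at 1.14-fold (1.06 to 1.23) and *Smad4* at 1.07-fold (1.01 to 1.13) kept ratios above 1. Cluster by cluster, among the 14 with at least 50 cells in each library, *Fst* was higher in tumor in 12 and lower in 0, *Smad4* was higher in 12 and lower in 2, *Acvr1b* was higher in 11 and lower in 3, and *Smad7* was higher in 7 and lower in 7. All these clusters share the same 2 libraries, and no tally over all genes was made, so the tallies are a description only. The tally of *Fst* rests on few UMIs, such as 1 in each library in clusters 13 and 15 and 2 in each in cluster 11. Only in cluster 9 did its intervals not overlap, at 0 CPM (0 to 0.681) in control and 2.25 CPM (1.08 to 4.14) in tumor. The 153 control cells that fell in the tumor-enriched clusters had 22 *Smad7* UMIs, 13.7 CPM (8.61 to 20.8), and 2 *Fst* UMIs, 1.25 CPM (0.151 to 4.51). In those clusters tumor over control was 1.52-fold (0.997 to 2.45) for *Smad7*, 4.46-fold (1.21 to 37.1) for *Fst* and 0.658-fold (0.434 to 1.04) for *Acvr1*.

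In the control library 643 cells had an *Inhba* UMI and in the tumor library 2164, with medians of 12792 and 9369 UMIs against 10108 and 7895.5 in the cells without one. In the control library 0 members were called higher and 0 lower, where 2.85% of 11307 genes were called higher and 6.47% lower. In the tumor library the counts were also 0 and 0, where 0.997% of 11332 genes were called higher and 2.77% lower. Of the 10 members, 7 passed the minimum in control and 8 in tumor, where *Fst* joined them.

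*Acvr1b* was at 30.8 CPM (28.5 to 33.2) in *Inhba*-positive and 31.2 CPM (29.6 to 32.9) in *Inhba*-zero cells of the tumor library, 0.987-fold (0.899 to 1.08), and at 26.6 and 28.2 CPM in control, 0.943-fold (0.816 to 1.09). *Acvr2a* was at 7.92 and 7.77 CPM in tumor and at 6.86 and 7.57 CPM in control. *Acvr2b* had the lower value in the positive cells of both libraries, at 3.98 against 5.09 CPM in tumor and 3.78 against 5.23 CPM in control, with ratios of 0.782 (0.605 to 1.003) and 0.723 (0.486 to 1.04) whose intervals reached 1. With cells thinned and classed by thinned counts, its log2 ratio in control turned from −0.47 to 0.22 and that of *Acvr1b* from −0.09 to 0.29, and that of *Acvr2a* went from −0.14 to −0.85 in control and from 0.03 to −0.58 in tumor. In tumor that of *Acvr1* went from −0.16 to −0.47 and that of *Smad4* from 0.09 to 0.19. *Acvr1* was at 0.896-fold (0.767 to 1.04) in tumor and 0.802-fold (0.641 to 0.995) in control, an interval that ended just below 1.

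Among the SMADs, *Smad2* was at 39.1 and 40.7 CPM in the positive and zero cells of the tumor library, 0.960-fold (0.885 to 1.04), and at 42.1 and 42.2 CPM in control. *Smad4* was at 54.5 and 51.3 CPM in tumor, 1.06-fold (0.990 to 1.14), and at 44.7 and 47.0 CPM in control. *Smad7*, which rises under SMAD signaling in many cells, was at 14.7 CPM (13.2 to 16.4) and 15.8 CPM (14.7 to 16.98) in tumor, 0.932-fold (0.815 to 1.06), and at 10.4 and 12.0 CPM in control, 0.870-fold (0.689 to 1.09), where thinned classes turned the log2 ratio from −0.20 to 0.17. For *Smad2*, *Smad4* and *Smad7* the intervals in both libraries excluded a 1.5-fold difference in either direction.

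*Fst* was at 3.44 CPM (2.71 to 4.31) in positive and 2.95 CPM (2.48 to 3.49) in zero cells of the tumor library, 1.16-fold (0.869 to 1.55). In control it had 5 and 24 UMIs in the classes. Within the tumor-enriched clusters *Fst* was at 4.75 CPM in 988 positive and 6.02 CPM in 1995 zero cells, 0.789-fold (0.554 to 1.11). Within the other macrophage clusters it was at 2.26 CPM in 1173 positive and 0.903 CPM in 3487 zero cells. The ratio was 2.51-fold (1.39 to 4.52), from 26 and 25 UMIs. With 25 UMIs in the zero cells, *Fst* could reach the minimum only at a ratio past 1.5-fold. Its call there was therefore fixed by that minimum, and no conclusion is drawn from it. The intervals of the levels did not overlap, which is a description of 51 UMIs and was not tested. *Fst* and *Inhba* were seen in the same cell in 67 tumor and 4 control cells, and after thinning in 0.303% (0.187 to 0.462) of tumor cells. *Smad3* had 7 and 9 UMIs in the positive and zero cells of the tumor library and *Fstl3* had 3 and 16.

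**Figure D4:**
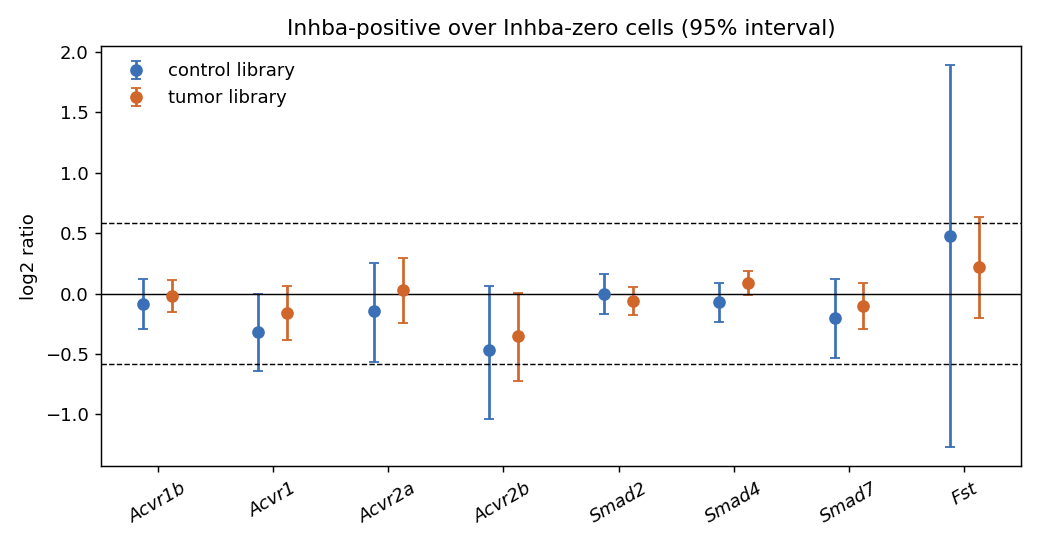
Log2 ratio of *Inhba*-positive over *Inhba*-zero cells in each library for the 8 members with at least 50 UMIs over both libraries, with 95% intervals and the 1.5-fold limits dashed. The points lie between −0.47 and 0.47, and the control *Fst* point, from 29 UMIs and not called, has the widest interval.

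Cells with more UMIs have more chances of an *Inhba* UMI, so the classes were also formed after thinning, with 355 positive and 5235 zero cells in control and 1424 and 5513 in tumor. *Smad4* was then in 19.4% of positive and 17.1% of zero tumor cells, a difference of 2.31 points (0.0475 to 4.68). *Acvr1* was in 3.30% and 4.57%, a difference of −1.27 points (−2.32 to −0.0785), and *Acvr2a* in 2.11% and 3.102%, −0.995 points (−1.84 to −0.00394). The other members in tumor, and all 10 in control, had differences whose intervals included 0. *Fst* was in 1.47% of positive and 1.05% of zero tumor cells.

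The other genes of the pathway were described from lists, whose counts stand against the 8.44% of all genes tested called higher and the 11.0% called lower in tumor over control. Of 15 other ligands and subunits, 3 passed the minimum, with *Gdf15* at 537 and 575 CPM and *Tgfb1*, the founding TGF-beta ligand, at 316 and 336 CPM in control and tumor. *Tgfb2* was the 1 gene lower, at 8.57 and 4.72 CPM. The activin partner subunits *Inha*, *Inhbc* and *Inhbe* had no UMI and *Inhbb* had 4 and 1. The median log2 ratio of the list was 0.09.

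Of 11 other receptors and co-receptors in the tables, 9 passed, 3 were higher and 1 lower, with a median of −0.02. *Tgfbr1* and *Tgfbr2*, the TGF-beta receptors, were at 186 and 183 CPM in control and 171 and 179 CPM in tumor, and *Bmpr2*, a type II receptor that can also hold activin, at 79.8 and 86.8 CPM. *Bambi*, a decoy that resembles a type I receptor without its kinase, was higher at 1.03 and 4.46 CPM, *Eng*, a co-receptor, at 0.971 and 2.85 CPM, and *Tgfbr3* at 0.0771 and 0.843 CPM. *Tgfbr3* was at 0.0341 and 0.0255 CPM in the tumor-enriched and other macrophage clusters, so its UMIs lay mostly in the fibroblast-led cells. From its 5 control UMIs, with 58 in tumor, it could reach the minimum only at a ratio past 1.5-fold, which fixed its call. *Acvr1c*, the type I receptor ALK7, was lower at 0.694 and 0.0727 CPM, from 45 and 5 UMIs. From its 5 tumor UMIs it too could reach the minimum only at a ratio past 1.5-fold. Its call as lower was therefore fixed by that minimum, and no conclusion is drawn from it.

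Of 8 other antagonists, 2 passed, with a median of 1.49. *Fstl1*, a follistatin-like protein, was higher at 17.1 and 38.6 CPM. *Lefty1*, an inhibitor of Nodal signaling, was at 0.293 and 1.02 CPM, from 19 and 70 UMIs. From 19 control UMIs *Lefty1* could reach the minimum only at a ratio past 1.5-fold. Its call as higher was therefore fixed by that minimum, and the median rests partly on it. Of 4 other SMADs, 3 passed, and *Smad6*, the second inhibitory SMAD, was higher at 0.386 and 1.03 CPM while *Smad1* was at 69.7 and 59.4 CPM, with a median of 0.01. In the tumor library *Fstl1*, *Bambi* and *Smad6* were at 58.1, 7.48 and 1.54 CPM in the tumor-enriched and 22.1, 2.04 and 0.638 CPM in the other clusters.

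Of 13 regulators of SMADs, all passed, 4 were higher and 1 lower, with a median of 0.08. The higher ones were the corepressor *Tgif1* (82.2 and 138 CPM), its relative *Tgif2* (0.833 and 1.32 CPM), the SMAD anchor *Zfyve9* (6.65 and 10.9 CPM) and the ubiquitin ligase *Nedd4l* (2.005 and 6.09 CPM). *Pmepa1*, an inhibitor of SMAD signaling that the pathway itself induces, was lower at 124 and 74.0 CPM. *Ski*, *Skil*, *Ppm1a* and *Usp15* were at 163, 210, 75.5 and 80.2 CPM in control and 160, 183, 79.6 and 74.2 CPM in tumor. Of 14 genes known to respond to SMADs, 11 passed, 3 were higher (*Id2*, 135 and 365 CPM, *Id3*, 8.97 and 18.4 CPM, and *Junb*, 828 and 1616 CPM) and 1 lower, which was again *Pmepa1*, with a median of 0.01. *Tgfbi* was at 431 and 581 CPM and *Cdkn1a* at 736 and 743 CPM. *Pmepa1* was at 39.2 CPM in the tumor-enriched and 100.2 CPM in the other clusters, the reverse of *Smad7*.

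Among 14 immediate early and dissociation genes, which respond to stress of isolation as well as to signals, 9 were higher in tumor and 0 lower, with a median of 0.81. Of all genes tested, 8.44% were called higher and 11.0% lower. The higher ones were *Fos* (696 and 1260 CPM), *Junb*, *Ier2* (158 and 260.1 CPM), *Ier3* (114 and 365 CPM), *Nr4a1* (177 and 392 CPM), *Hspa1a* (111 and 260.3 CPM), *Hspa1b* (106 and 311 CPM), *Zfp36* (308 and 529 CPM) and *Btg2* (246 and 443 CPM). *Fosb* (659 and 929 CPM), *Jun* (330.4 and 380.2 CPM), *Egr1* (111 and 138 CPM), *Atf3* (469 and 527 CPM) and *Dusp1* (452 and 616 CPM) were not called. *Junb* stands among the SMAD responders too. The part of such a response in the levels of *Fst* and *Smad7* was not tested. Within the tumor library, tumor-enriched over other clusters, *Ier3* was higher by 1.5-fold or more (542 and 231 CPM). *Egr1* (74.4 and 185 CPM), *Jun* (209 and 503 CPM), *Hspa1a* (137 and 352 CPM) and *Hspa1b* (155 and 428 CPM) were lower, and the other 9 genes were in between. Of all genes tested there, 5.82% were called higher and 11.2% lower.

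Genes whose level followed each member most closely were taken from the 30 sums of cells formed by cluster and library, with Pearson's r of log2(CPM + 1) over 9350 genes. The 30 sums share 2 libraries and differ in depth, so r is given as a description. *Acvr1b* was followed most closely by *Cd44* (r = 0.82), *Gpbp1l1* (0.81) and *Arhgap26* (0.80), *Smad4* by *Hs2st1* (0.81), *Chd7* (0.81) and *Eprs* (0.81), and *Smad2* by *Nup160* (0.78), *Pcm1* (0.73) and *Tom1l2* (0.72). *Acvr2b* was followed by *Arhgap4* (0.75), *Naa35* (0.74) and *Rnf167* (0.74), and *Acvr2a* by *Sipa1l1* (0.72), *Slc35d1* (0.71) and *Rybp* (0.71). *Smad7* was followed by *Eps8* (0.66), *Emp1* (0.65) and *Tbc1d2b* (0.64), and *Acvr1* by *Alg11* (0.63), *Wdr70* (0.61) and *Rgp1* (0.59). *Fst*, *Smad3* and *Fstl3* were under the 500 UMIs needed. No other member of the 10 was among the genes most like a member.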

How the data were processed

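Libraries of AMs were made with the 10x Genomics 3′ kit, v3.1. The deposited tables hold UMI counts, not normalized, for each gene in each barcode, which the authors obtained with Cell Ranger on mm10. The submitters' processing notes name Cell Ranger 4.0.0 and bcl2fastq 2.20, and the paper names another version of Cell Ranger. Of 32285 identifiers, 32158 were matched to a symbol, and coordinates are from GENCODE vM21.

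Barcodes with at least 500 genes and at most 10% mitochondrial UMIs were kept. Scrublet called 0 doublets in both libraries by its automatic threshold, so no doublets were removed, and the highest scores (274 control and 410 tumor cells) were left out only as an alternative. Levels are CPM of summed UMIs with exact Poisson intervals, ratios carry conditional binomial intervals, shares Clopper-Pearson intervals, and cells were thinned without replacement. A difference between 2 shares has a Newcombe-type interval built from those of the shares. Clusters came from 2000 variable genes, 50 components, a mutual nearest neighbour correction and the Leiden method at a resolution of 1. The methods assign barcodes to samples by hashtag reads, which do not enter here; all barcodes of a table were assumed to belong to the condition on its label.

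All 10 members are named, and from each list every gene at 1.5-fold or at 50 CPM or more, except an item that is not reported here. The members and lists were chosen with earlier results of these data known. Filters, scaling, thinning, clustering, the *Inhba* limit and left-out cells were varied. Calculations were tested on simulated data. The work used Python 3.11.15 with scanpy 1.11.5, leidenalg 0.10.2, igraph 0.11.9, scikit-learn 1.9.0, matplotlib 3.10.9, scipy 1.17.1, pandas 2.3.3 and numpy 2.4.6.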

Additional observations from a re-analysis of the deposited data

Results flagged for a closer look

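The barcodes outside the quality limits, 2300 of control and 1509 of tumor, enter no comparison above, and there *Smad7* and *Smad4* were higher in the tumor library beyond counting error. *Smad7* was at 27.9 CPM (20.9 to 36.4) in tumor and 17.02 CPM (12.7 to 22.4) in control, from 54 and 51 UMIs, and *Smad4* at 61.5 CPM (50.9 to 73.5) and 43.0 CPM (35.9 to 51.1), from 119 and 129 UMIs. *Fst* had 5 and 1 UMIs there, and the intervals of the ratio included 0 on the log2 scale for *Fst* and for the other members with a UMI.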

How the results depend on the processing

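No paired analysis was possible because there is 1 library per condition. Of 70 counts of members called under alternatives, 67 stayed within 1.5 times the main count and 3 moved. With a minimum of 10 UMIs, 3 members were called higher in tumor (*Fst*, *Smad3* and *Fstl3*). From its 2 control UMIs *Smad3* could reach that minimum only at a ratio past 1.5-fold, which fixed its call. The share of all genes called at that minimum is not given here, so no conclusion is drawn from the count. In the control library 1 member was called lower in *Inhba*-positive cells when at least 2 *Inhba* UMIs were required (*Acvr2b*), and 1 when cells were thinned and classed by thinned counts (*Acvr2a*, at a log2 ratio of −0.85). The log2 ratio of *Fst* in tumor over control ranged from 1.60, with the tumor-enriched clusters left out, a setting added after seeing the data, to 2.90. With clusters weighted as in control it was 1.62. The ratio of *Smad7* ranged from −0.15, with that weighting, to 0.46, so its direction depended on the cluster mix. That of *Acvr2b* ranged from −0.13 to 0.15 and that of *Smad2* from −0.11 to 0.02, while *Acvr1b*, *Acvr2a* and *Smad4* kept their direction in all settings. *Acvr1* ranged from −0.24 to −0.03, the latter with the tumor-enriched clusters left out or weighted as in control. In the tumor-enriched clusters, *Fst* ranged from 2.06 to 2.20 and *Smad7* from 0.97 to 1.03 over 2 other resolutions and without the highest cell, the last also added later. Of 239 values of single members, 19 moved beyond the main interval and 0 reversed a call. Depth limits *Smad3* and *Fstl3*, under the minimum of 50 UMIs, and the *Inhba* classes for *Fst* in control.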
